A study of Mus musculus with 4 samples.

Results

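DNA replication and nucleotide supply genes were taken as 43 listed members, found by gene name among the 22770 genes of the deposited table, and all 43 had a row. They code for the proteins that license replication origins, unwind DNA, synthesise both strands, supply deoxynucleotides and package the new DNA, together with the E-type cyclins that drive entry into S phase. Cerebral cortex was dissected from mouse embryos at embryonic day 16.5 and its RNA was sequenced in 4 libraries, 2 from wild-type littermates and 2 from Pax6 sey/sey embryos. All animals shared a mixed genetic background of C57BL/6J, 129S6 and CD1. The Sey mutation is present in every cell of the embryo, so a difference in cortex is not tied to a cell type in which Pax6 acts. The labels do not say that each library came from a separate embryo, so the p-values measure the spread between these libraries, which may be technical. The mutant libraries were not from the same animal, as Xist stood at 350.1 FPKM in mutant library 1 and 0.131 FPKM in mutant library 2. In the wild types Xist was 0.224 and 0.0788 FPKM. As judged from Xist, the sexes were thus not balanced between the genotypes.

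As background, replication starts when the origin recognition complex (ORC), with Cdc6 and Cdt1, loads the ring-shaped MCM helicase onto DNA in G1. Cdc45, the GINS complex and Mcm10 then turn the loaded ring into an active helicase, and polymerases alpha, delta and epsilon follow with the sliding clamp PCNA. Many of these genes are transcribed at the G1/S boundary under E2F transcription factors, and in embryonic cortex their RNA is found mainly in cycling progenitors of the ventricular and subventricular zones, while neurons have left the cell cycle. In bulk tissue, more cycling cells and more RNA per cycling cell cannot be told apart.

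Because these genes are known for shared E2F control, the sequence before the start site is shown for 6 members. Promoter sequences were those of RefSeq on GRCm38.p6, which matched 35 of the 43 members. Gins1, Gins2, Gins4, Mcm4, Pole, Prim2, Rfc2 and Ccne2 were not matched. Cdc6, Mcm5 and Cdc45 are the members with the largest called rise in 3 roles, and Orc1 is the member with the fold change closest to 0. Mcm6, for its number of E2F words, and Rrm2, for its p-value, were added after their values were seen. Each line gives the 180 bases that end just before the start annotated in RefSeq, 5′ to 3′ on the gene's strand. These starts can differ from the gene spans of GENCODE given elsewhere. The GENCODE span of Cdc6 begins at 98907801, so the whole Cdc6 stretch lies inside it. The Rrm2 stretch runs past the GENCODE start at 24708241. Capitals mark an E2F word (TTTCCCGC, TTTCGCGC, TTTGCCGC or TTTGGCGC) or a CCAAT box (CCAAT), on either strand.
Cdc6 promoter, chr11:98907971-98908150, plus strand: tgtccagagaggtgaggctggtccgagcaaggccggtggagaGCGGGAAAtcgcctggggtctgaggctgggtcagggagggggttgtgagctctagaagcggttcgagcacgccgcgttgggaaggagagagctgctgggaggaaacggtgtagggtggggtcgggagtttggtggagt
Mcm5 promoter, chr8:75109329-75109508, plus strand: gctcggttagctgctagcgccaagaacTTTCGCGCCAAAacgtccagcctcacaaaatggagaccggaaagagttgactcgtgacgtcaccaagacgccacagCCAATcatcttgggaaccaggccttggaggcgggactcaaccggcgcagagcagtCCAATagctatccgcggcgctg
Mcm6 promoter, chr1:128359706-128359885, minus strand: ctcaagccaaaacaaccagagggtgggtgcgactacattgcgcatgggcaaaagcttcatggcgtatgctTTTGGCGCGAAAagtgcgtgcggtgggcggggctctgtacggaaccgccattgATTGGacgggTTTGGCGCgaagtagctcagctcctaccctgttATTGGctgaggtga
Cdc45 promoter, chr16:18811973-18812152, minus strand: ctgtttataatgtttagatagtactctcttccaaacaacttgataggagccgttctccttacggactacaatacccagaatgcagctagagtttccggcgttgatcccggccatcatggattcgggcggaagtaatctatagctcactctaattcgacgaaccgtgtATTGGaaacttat
Rrm2 promoter, chr12:24708074-24708253, plus strand: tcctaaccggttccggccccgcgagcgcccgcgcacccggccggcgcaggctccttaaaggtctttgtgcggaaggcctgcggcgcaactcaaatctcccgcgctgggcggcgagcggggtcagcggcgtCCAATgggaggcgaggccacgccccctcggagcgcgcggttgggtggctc
Orc1 promoter, chr4:108579274-108579453, plus strand: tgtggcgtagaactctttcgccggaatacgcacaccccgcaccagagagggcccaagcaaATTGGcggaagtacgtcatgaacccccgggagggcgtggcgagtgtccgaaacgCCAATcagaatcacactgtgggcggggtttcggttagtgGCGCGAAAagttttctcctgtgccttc

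The Mcm5 stretch holds 2 E2F words that overlap on opposite strands, and the Mcm6 stretch holds 3, of which 2 overlap in the same way. Orc1 has an E2F word as well. In the 250 bases before the start, 8 of 35 matched members (22.9%) held an E2F word in at least 1 of their listed promoters: Orc1, Cdc6, Mcm5, Mcm6, Mcm7, Gins3, Pola1 and Rfc3. The same share was 3.84% over 10831 tested genes with a promoter and 2.16% over all 27025 genes of the promoter table. The word was found in 4 of 14 called members and in 4 of 21 members without a call. A CCAAT box, the element bound by NF-Y, lay in 21 of 35 members (60.0%) and in 40.5% of tested genes. The word TTTGAA, the cell cycle homology region of many mitotic promoters, lay on either strand in 4 members (11.4%) and 12.7% of tested genes. Of the matched promoters of 14 mitotic genes, 1 (7.14%) held an E2F word and 6 (42.9%) held TTTGAA. With the listed bases after the start included, the share with an E2F word was 37.1% of members (13 of 35) and 4.64% of tested genes, and TTTGAA lay in 10 of the 14 mitotic promoters (71.4%) and 14.2% of tested genes. These matches describe letters in a window and were not tested for use in cortex.

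Replication genes were higher in Pax6 mutant cortex. All 43 fold changes were above 0 (50.1% of tested genes were), 15 members passed the test as higher, and 0 passed as lower. Expression is given as FPKM, fragment counts scaled for exon length and library size, and a fold change is the difference of mean log2(FPKM + 0.5), mutant minus wild type. A gene was called at a limma Benjamini-Hochberg adjusted p under 0.05 over 15399 genes that reached 0.5 FPKM in 2 libraries, a filter that all 43 members passed. The 15 called members are 34.9% of the list, while 2.02% of all tested genes were called higher and 1.46% lower (3.48% in all). At an unadjusted limma p under 0.05, 34 members were higher and 0 lower, which is 79.1% of the list against 10.2% of tested genes that were higher. Both mutant libraries lay above both wild-type libraries for 39 members (90.7%), against 25.8% of tested genes. The median log2 fold change was 0.54 for the members and 0.00062 for all tested genes.

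A missed threshold does not show that a member did not differ. Each genotype had 2 libraries, and the p-values were adjusted over 15399 genes. While 34 members had an unadjusted limma p under 0.05, 15 passed after adjustment. The median SE of the members' fold changes was 0.11, beside a median fold change of 0.54. The ratio of mutant to wild-type mean FPKM ranged from 1.06 (Orc1) to 2.48 (Mcm10), with a median of 1.48. The 15 called members had log2 fold changes of 0.43 (Dut) to 1.17 (Pole) and adjusted p values of 0.00783 (Rrm2) to 0.0440 (Dut). Summed over the 43 members, FPKM was 789.6 and 838.3 in wild-type cortex and 1148 and 1225 in mutant cortex, or 0.133% and 0.143% against 0.198% and 0.211% of each library's total. Mutant library 2 was above mutant library 1 for 32 of 43 members. The median ratio was 1.09, against 0.999 over all tested genes. Wild-type library 2 was likewise above wild-type library 1 for 27 of 43 members. There the median ratio was 1.06, against 1.0003 over all tested genes. The same counts were not made over all tested genes. Across the 43 members, fold change and wild-type level had a Spearman rho of -0.27, a description over genes of the same libraries.

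The calls rested on few libraries. With either wild-type library left out, 0 members were called higher by limma, although 28 (without the first) and 32 (without the second) had an unadjusted p under 0.05. Leaving out mutant library 1 kept 7 calls, and leaving out mutant library 2 kept 1. Each such fit assumes that the lone library of its group varies like the other group. Over all tested genes, calls and unadjusted limma p values under 0.05 were also fewer in each of these fits than with all 4 libraries. The 7 were Mcm5, Mcm6, Mcm7, Prim1, Pole, Lig1 and Rrm2, and the 1 was Rrm2. The members' median kept its sign in all 4, from 0.49 to 0.64, and the number with a fold change above 0 was 41 to 43. The exact two-sided permutation test of a single gene over 2 against 2 libraries cannot go below p = 0.333.

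**Figure D1:**
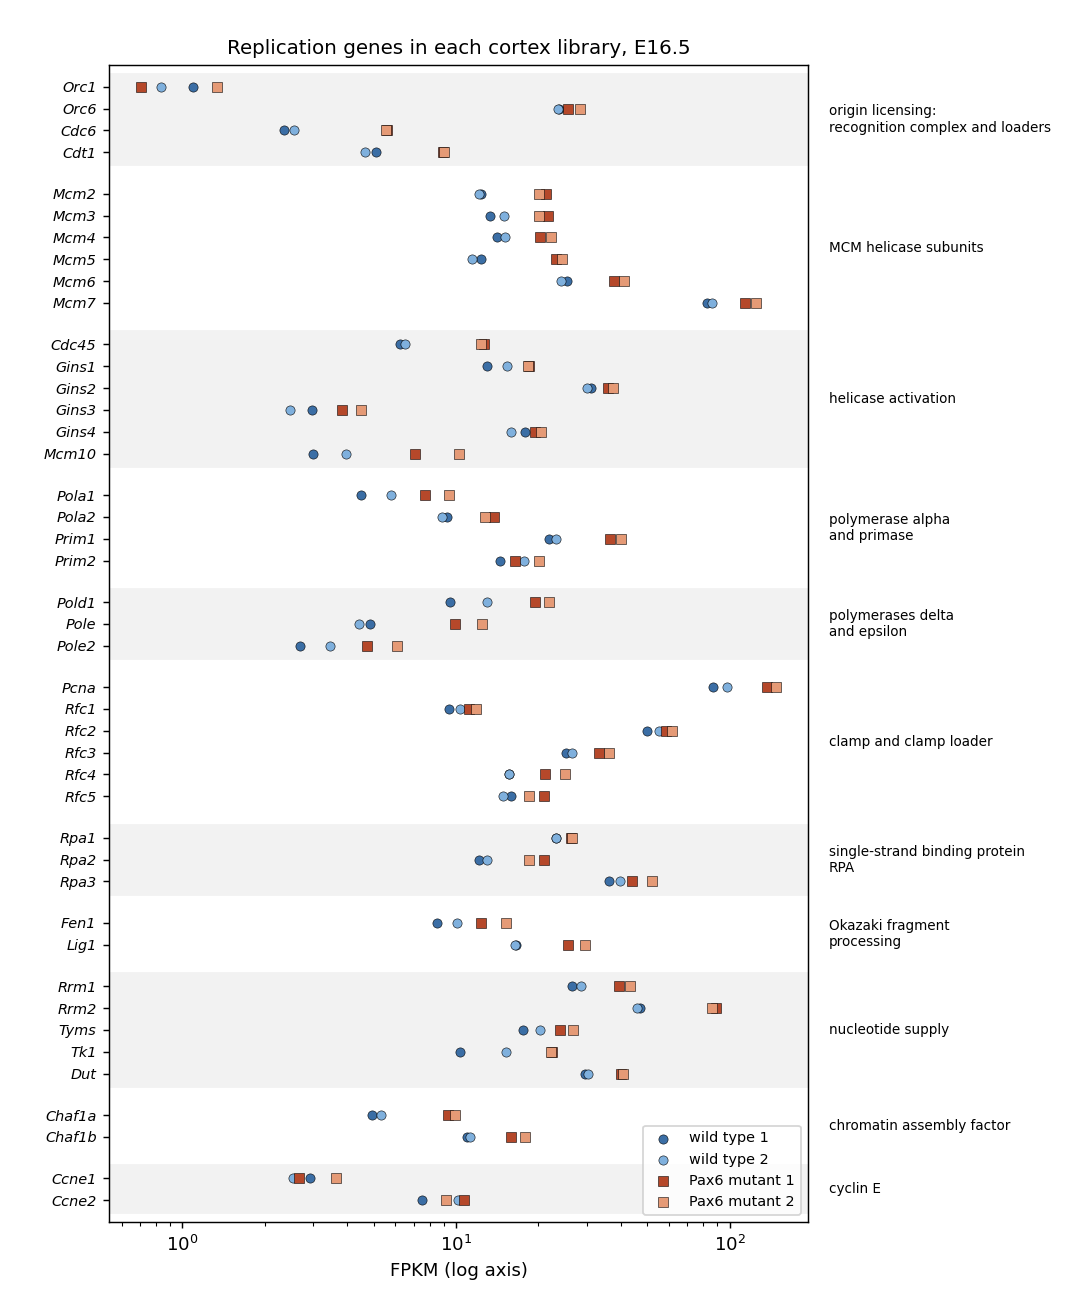
FPKM on a log axis of the 43 replication genes in each of the 4 libraries, grouped by role, with wild types as circles and Pax6 mutants as squares. Both squares lie to the right of both circles for 39 genes, and the exceptions are Orc1, Prim2, Ccne1 and Ccne2.

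Of the 4 origin licensing genes, the loaders Cdc6 and Cdt1 rose, and the ORC subunit genes Orc1 and Orc6 were not called. Cdc6, the ATPase that brings MCM to ORC, was 2.34 and 2.56 FPKM in wild-type cortex and 5.62 and 5.53 FPKM in mutant cortex. Its log2 fold change was 1.04 (SE 0.15, limma adjusted p = 0.0394). Cdt1, the partner that carries MCM to the origin and is blocked by geminin, was 5.08 and 4.63 FPKM in wild-type cortex and 8.92 and 9.02 FPKM in mutant cortex (0.82, SE 0.13, adjusted p = 0.0424). For both loaders the genotypes were well apart and the replicates close, but both calls were lost with any 1 library left out, with no filter on low values (adjusted p = 0.105 for Cdc6 and 0.0982 for Cdt1) and without the mean-variance trend (0.0575 and 0.0730). Orc1, the large ORC subunit, was the lowest member at 1.10 and 0.837 FPKM in wild-type cortex and 0.706 and 1.33 FPKM in mutant cortex, so the mutants lay on either side of the wild types. Its fold change was 0.026 with a 95% interval of -0.75 to 0.81, and its level corresponds to about 34, 20, 19 and 50 fragments in the 4 libraries, in the same order, as judged from the value of 1 fragment in the lowest genes. The locus that the table gives for Cdt1 is shared with other genes, 93 in all with Gins2 among them, so how reads were assigned there is uncertain. Orc1 shares 10.8% of its exon length with the opposite-strand gene Gm12743. Orc6, the small ORC subunit, was 23.8 and 23.5 FPKM in wild-type cortex and 25.6 and 28.2 FPKM in mutant cortex and was not called (fold change 0.18, adjusted p = 0.331). Whether the loaders and the ORC genes differ was not tested. The interval of Orc1 includes the members' median rise, whereas that of Orc6 ended at 0.40.

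The MCM genes code for the 6 subunits of the helicase ring, and 4 of 6 rose. Mcm5 (ENSMUSG00000005410, chromosome 8, 75109569 to 75128439 in GRCm38) was 12.3 and 11.5 FPKM in wild-type cortex and 23.2 and 24.3 FPKM in mutant cortex, a log2 fold change of 0.97 (SE 0.092, adjusted p = 0.0188). Mcm2 was 12.3 and 12.1 FPKM in wild-type cortex and 21.3 and 20.1 FPKM in mutant cortex (0.74, adjusted p = 0.0281). Mcm6 was 25.4 and 24.1 FPKM in wild-type cortex and 37.8 and 41.2 FPKM in mutant cortex (0.66, adjusted p = 0.0288). Mcm7, whose transcript also hosts the microRNA genes Mir25, Mir93 and Mir106b, was the most abundant subunit RNA at 82.3 and 85.8 FPKM in wild-type cortex and 114 and 125 FPKM in mutant cortex (0.50, adjusted p = 0.0346). Mcm3 and Mcm4 had fold changes of 0.55 and 0.53 with adjusted p of 0.0661 and 0.0634, so both missed the threshold narrowly although neither overlapped between groups. Mcm4, with the smaller fold change of the pair, was 14.1 and 15.1 FPKM in wild-type cortex and 20.3 and 22.2 FPKM in mutant cortex.

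The order of the MCM RNA levels shifted at its lower end. Mcm7 and Mcm6 stood highest in all 4 libraries, while Mcm5 was among the lowest of the 6 in wild-type cortex, with Mcm2 beside it, and came directly after them in both mutants. In the mutants Mcm2, Mcm3, Mcm4 and Mcm5 lay between 20.05 and 24.3 FPKM. Whether Mcm5 rose more than the other subunits was not tested.

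**Figure D2:**
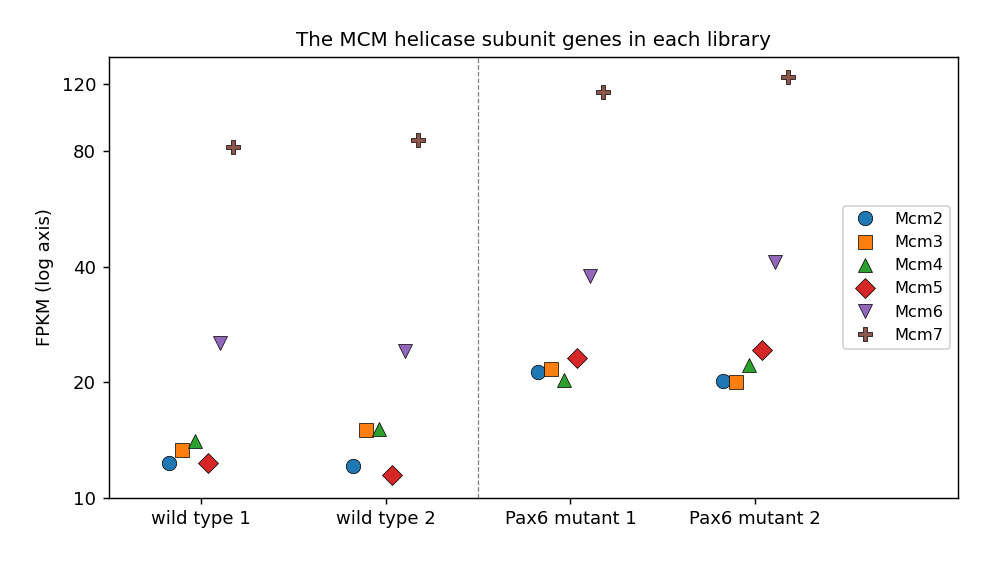
FPKM on a log axis of the 6 MCM subunit genes in each library, 1 symbol per gene, with the wild types left of the dashed line and the Pax6 mutants right of it. Mcm5 lies at 12.3 and 11.5 FPKM in wild-type cortex and at 23.2 and 24.3 FPKM in mutant cortex, and Mcm7 is the highest throughout.

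Among the genes that activate the helicase, Cdc45 was the 1 of 6 called. Cdc45, the subunit that joins MCM and GINS in the active helicase, was 6.25 and 6.53 FPKM in wild-type cortex and 12.6 and 12.3 FPKM in mutant cortex (log2 fold change 0.91, SE 0.11, adjusted p = 0.0281). Mcm10, which is needed to fire the loaded helicase, had the largest fold change of all members at 1.19, yet it was not called (adjusted p = 0.0727). Its levels were 3.01 and 3.96 FPKM in wild-type cortex and 7.05 and 10.3 FPKM in mutant cortex, so the groups were apart but the replicates were too. The 4 GINS genes were not called, with fold changes of 0.24 (Gins4) to 0.54 (Gins3) and adjusted p of 0.148 to 0.277. Gins4 was 17.8 and 15.8 FPKM in wild-type cortex and 19.4 and 20.5 FPKM in mutant cortex, a narrow separation. Gins2 shares 67.3% of its exon length with the opposite-strand gene Gse1, and Cdc45 shares 6.0% with Ufd1. Strand use in counting is not stated, so reads of such pairs cannot be told apart and their values are uncertain.

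The polymerase and primase genes included the largest called rise and a gene whose groups overlapped. Pole, the catalytic subunit of the leading-strand polymerase epsilon (ENSMUSG00000007080, chromosome 5, 110286306 to 110337474 in GRCm38), was 4.86 and 4.42 FPKM in wild-type cortex and 9.93 and 12.4 FPKM in mutant cortex. Its log2 fold change was 1.17 (SE 0.16, adjusted p = 0.0336), the largest among called members. Pole2, its second subunit, had a fold change of 0.72 without a call (adjusted p = 0.153), at 2.69 and 3.47 FPKM in wild-type cortex and 4.74 and 6.06 FPKM in mutant cortex. Pold1, the catalytic subunit of the lagging-strand polymerase delta, had a fold change of 0.86 and was not called (adjusted p = 0.0733). Prim1, the catalytic subunit of the primase that lays down RNA primers, rose from 21.8 and 23.1 FPKM in wild-type cortex to 36.6 and 39.9 FPKM in mutant cortex (0.75, SE 0.084, adjusted p = 0.0248). Its partner Prim2 was 14.5 and 17.8 FPKM in wild-type cortex and 16.4 and 20.1 FPKM in mutant cortex, so the groups overlapped (0.17, adjusted p = 0.592, 95% interval -0.22 to 0.56). Prim1 and Prim2 work as a pair in the enzyme, and whether their fold changes differ was not tested. Pola1 and Pola2, of polymerase alpha, had fold changes of 0.68 and 0.52 and were not called (adjusted p = 0.138 and 0.0778). Pola1 lies on the X chromosome, and its lower mutant value, 7.67 FPKM, was that of the library with Xist, against 9.43 FPKM in the other mutant. The wild types, both with little Xist, were as far apart at 4.49 and 5.80 FPKM. Library 2 over library 1 was 1.23 in the mutants and 1.29 in the wild types. A link to sex was not tested.

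Pcna rose while the clamp loader genes were not called. Pcna, the sliding clamp that tethers polymerases to DNA (ENSMUSG00000027342, chromosome 2), was the most abundant member at 86.8 and 97.8 FPKM in wild-type cortex and 137 and 148 FPKM in mutant cortex. Its log2 fold change was 0.62 (SE 0.083, adjusted p = 0.0338). The annotation holds pseudogenes named Pcna-ps1 and Pcna-ps2, so how shared reads were assigned is uncertain. The loader genes Rfc1 to Rfc5 had fold changes of 0.19 (Rfc2) to 0.54 (Rfc4), with adjusted p of 0.0687 to 0.383. Rfc2 was 49.7 and 55.2 FPKM in wild-type cortex and 58.3 and 61.6 FPKM in mutant cortex, and the 95% interval of its fold change was -0.010 to 0.40. For each of the 5 loader genes both mutants lay above both wild types, but for Rfc1 and Rfc2 the gap between genotypes was smaller than that between the wild types.

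The RPA complex, which coats single-stranded DNA, had 0 of 3 genes called by limma, and 2 of 3 had an unadjusted p under 0.05. Rpa2 came closest with a fold change of 0.63 (adjusted p = 0.0551), followed by Rpa3 at 0.33 (0.194) and Rpa1 at 0.18 (0.263). Rpa1 was 23.2 and 23.1 FPKM in wild-type cortex and 26.2 and 26.5 FPKM in mutant cortex, a small shift between tight pairs. Of the genes that finish Okazaki fragments, the DNA ligase gene Lig1 rose from 16.5 and 16.4 FPKM in wild-type cortex to 25.7 and 29.6 FPKM in mutant cortex (0.73, adjusted p = 0.0344). Fen1, the flap nuclease, was 8.52 and 10.1 FPKM in wild-type cortex and 12.3 and 15.2 FPKM in mutant cortex and was not called (0.54, adjusted p = 0.151). The antisense gene Gm10143 shares 78.8% of the exon length of Fen1, which leaves its value uncertain.

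Nucleotide supply genes rose in 3 of 5 cases and included the member with the smallest p. Rrm2, the small subunit of ribonucleotide reductase, makes deoxynucleotides and is limiting for the enzyme in S phase (ENSMUSG00000020649, chromosome 12, 24708241 to 24714146 in GRCm38). It was 47.1 and 45.97 FPKM in wild-type cortex and 88.7 and 86.2 FPKM in mutant cortex, a log2 fold change of 0.90 (SE 0.059, adjusted p = 0.00783). Replicates of Rrm2 lay close together in both genotypes, and its promoter shown above has a CCAAT box and no E2F word of the kind searched. Rrm1, the large subunit, rose from 26.6 and 28.7 FPKM in wild-type cortex to 39.5 and 43.3 FPKM in mutant cortex (0.57, adjusted p = 0.0395). Dut, which removes dUTP, rose from 29.5 and 30.3 FPKM in wild-type cortex to 40.1 and 40.7 FPKM in mutant cortex (0.43, adjusted p = 0.0440). Tyms, which makes thymidylate, was 17.6 and 20.2 FPKM in wild-type cortex and 23.9 and 26.7 FPKM in mutant cortex without a call (0.41, adjusted p = 0.136). The thymidine kinase gene Tk1 had a larger fold change of 0.80, but its wild types lay apart at 10.3 and 15.3 FPKM and it was not called (adjusted p = 0.109).

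Chaf1a and Chaf1b code for subunits of CAF-1, which deposits histones behind the fork. Chaf1a rose from 4.91 and 5.33 FPKM in wild-type cortex to 9.37 and 9.88 FPKM in mutant cortex (0.85, adjusted p = 0.0386), but it shares 52.5% of its exon length with the opposite-strand gene Ubxn6 and its value is uncertain. Chaf1b was 10.98 and 11.3 FPKM in wild-type cortex and 15.8 and 17.8 FPKM in mutant cortex and was not called (0.57, adjusted p = 0.0625). In all, 16 members share exon bases with another annotated gene, and 5 of them were called. Of the 27 members without such overlap 10 were called, with a median fold change of 0.57.

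The E-type cyclin genes were not called, and for both the genotypes overlapped. Ccne1 was 2.94 and 2.54 FPKM in wild-type cortex and 2.66 and 3.65 FPKM in mutant cortex (log2 fold change 0.16, adjusted p = 0.731, 95% interval -0.38 to 0.71). Ccne2 was 7.49 and 10.2 FPKM in wild-type cortex and 10.7 and 9.18 FPKM in mutant cortex (0.17, adjusted p = 0.659, 95% interval -0.29 to 0.64). In these libraries cyclin E RNA thus showed no separation of the genotypes, and the intervals include rises as large as the members' median. The sign turned for Ccne1 without mutant library 2 (-0.032) and for Ccne2 without wild-type library 1 (-0.035). Orc1 turned as well, to -0.10 with wild-type library 2 left out and to -0.28 with mutant library 2 left out.

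**Figure D3:**
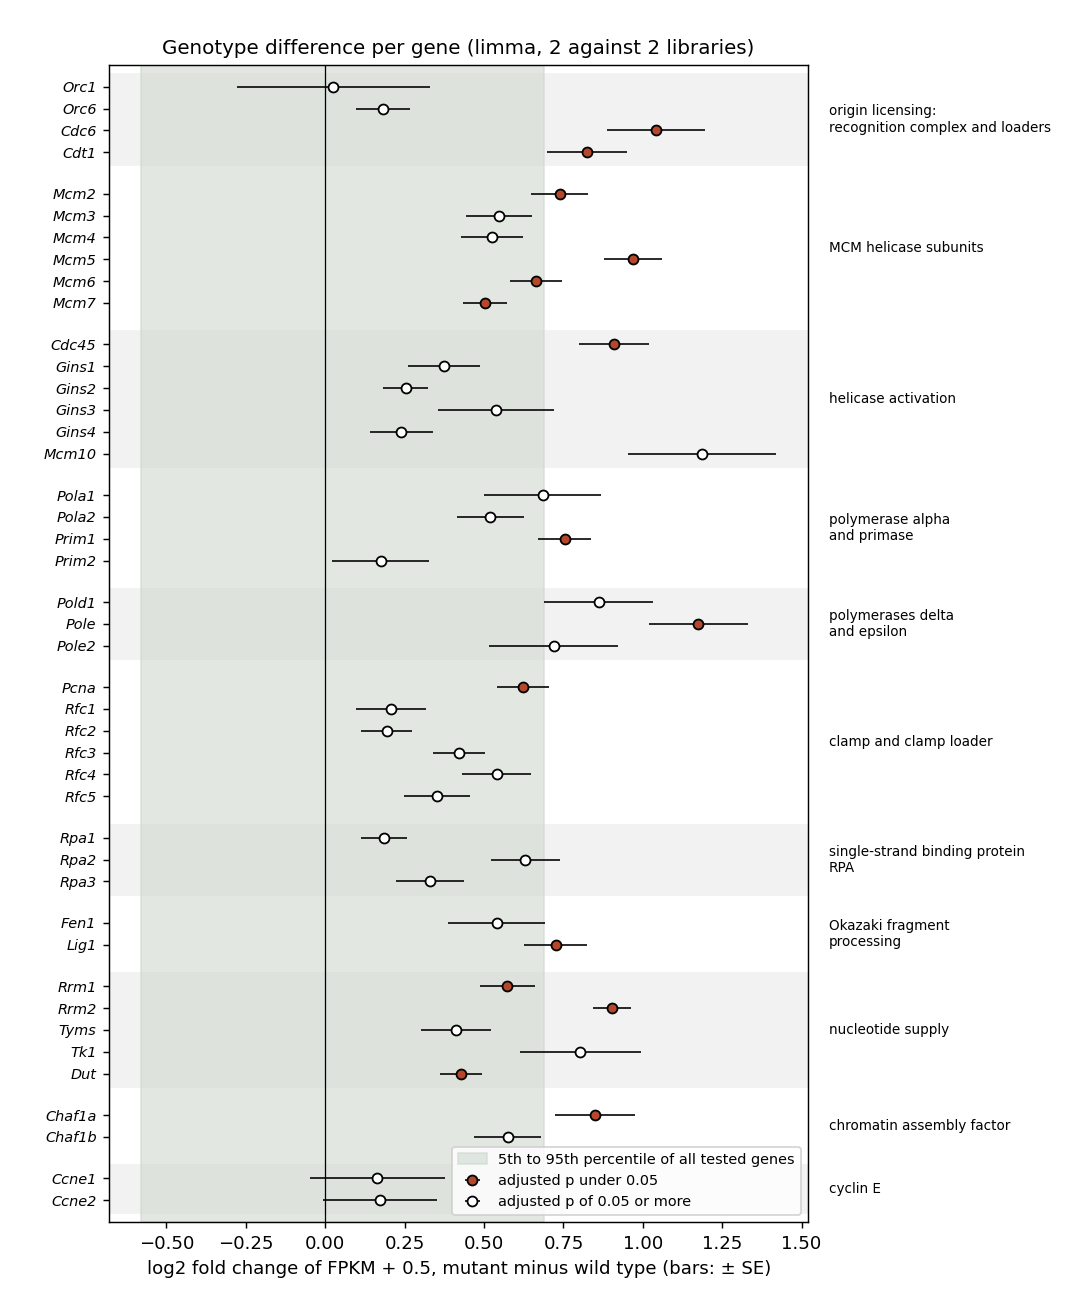
Log2 fold change of FPKM + 0.5, mutant minus wild type, of the 43 replication genes with bars of ± SE, filled where the limma adjusted p was under 0.05. The shaded band spans the 5th to the 95th percentile of all tested genes, -0.58 to 0.69, and the 15 filled points run from 0.43 (Dut) to 1.17 (Pole).

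The rest of the replication pathway was read from lists of genes grouped by function. Of 19 other licensing, firing and fork genes, 5 rose and 0 fell, with a median fold change of 0.53. The called genes with the smallest p were Wdhd1, a polymerase alpha adaptor at the fork (0.97, adjusted p = 0.0301), Timeless, of the fork protection complex (0.83, 0.0323), and Ccna2, which codes for cyclin A2 (0.78, 0.0344). The ORC genes Orc2, Orc3, Orc4 and Orc5 had fold changes of -0.25 to 0.044 and were not called. With Orc1 and Orc6, 0 of 6 ORC subunit genes passed the limma test, and Orc2, with the lower level in mutant cortex, had an unadjusted p of 0.0415. Among 13 other polymerase, primer removal and clamp genes, 1 rose, Pold3 of polymerase delta (0.49, adjusted p = 0.0410), and 0 fell, with a median of 0.31.

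Other nucleotide supply genes did not share the shift of the ribonucleotide reductase genes. Of 19, 1 rose and 0 fell, the median was -0.040 and 10 had a fold change of 0 or below. The called gene was Paics, of purine synthesis (0.39, adjusted p = 0.0388). Rrm2b, the ribonucleotide reductase subunit used outside S phase, had a fold change of -0.28 and was not called (adjusted p = 0.399). The list's median turned above 0 without wild-type library 1 (0.030), wild-type library 2 (0.040) or mutant library 2 (0.11).

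Replication-coupled chromatin genes and E2F genes were higher in part. Of 7 chromatin genes 3 rose and 0 fell (median 0.36): Uhrf1, which brings the maintenance methyltransferase to new DNA (0.91, adjusted p = 0.0336), the histone chaperone gene Nasp (0.35, 0.0372) and Slbp, which processes replication-dependent histone mRNA (0.50, 0.0454). Of 13 E2F and pocket protein genes 2 rose and 0 fell (median 0.31). E2f7, a repressor of the family that is itself induced in S phase, was 4.44 and 3.62 FPKM in wild-type cortex and 10.5 and 10.2 FPKM in mutant cortex (1.27, adjusted p = 0.0267). E2f2, an activator, was 1.497 and 1.26 FPKM in wild-type cortex and 4.17 and 4.05 FPKM in mutant cortex (1.30, adjusted p = 0.0357). E2f1 had a fold change of 0.80 and missed the threshold narrowly (adjusted p = 0.0526), and Rb1 had one of 0.078 (0.637).

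Mitotic genes stood higher still in these libraries. Of 16, 13 rose and 0 fell, with a median fold change of 1.02. The smallest p values were those of Cdk1, the mitotic kinase (0.71, adjusted p = 0.0154), Ccnb1, its cyclin B1 partner (0.93, 0.0159), and Nusap1, a spindle protein gene (1.11, 0.0204). All 16 had a fold change of at least 0.57, a value that 20 of the 43 replication genes reached. Whether the lists differ was not tested, and the same 4 libraries underlie both. The number of mitotic genes called was 0 with either wild-type library left out, 11 with mutant library 1 left out and 3 with mutant library 2 left out. In these fits the other licensing list and the chromatin list each had 1 gene called with mutant library 1 left out and 0 otherwise, and the other polymerase, other nucleotide and E2F lists had 0.

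**Figure D4:**
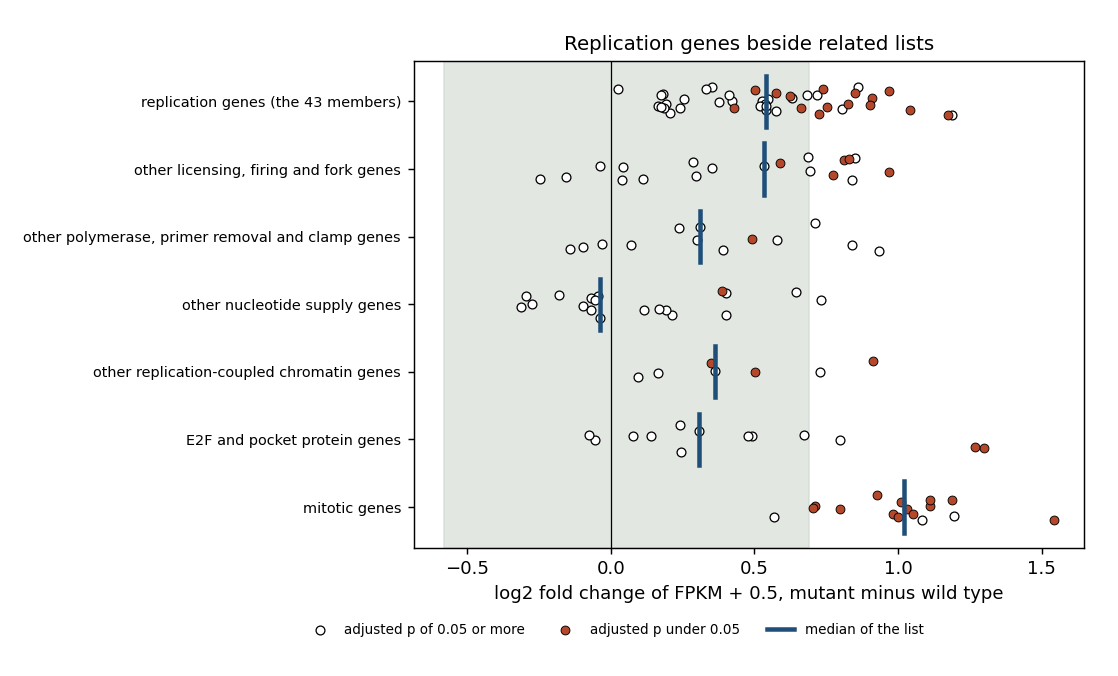
Log2 fold change of FPKM + 0.5, mutant minus wild type, of each tested gene of 7 lists, filled where the limma adjusted p was under 0.05, with a bar at each list's median and a band from the 5th to the 95th percentile of all tested genes. The median is 0.54 for the 43 replication genes, 1.02 for mitotic genes and -0.040 for other nucleotide supply genes.

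Markers of cell types moved between the same libraries. The cortical glutamatergic markers that check the tissue label were present in every library and summed to 1149 and 1228 FPKM in wild-type cortex and 716 and 652 FPKM in mutant cortex, with 6 of 8 lower and 0 higher. Ventral progenitor markers, of the territory below the cortex, summed to 112.8 and 81.6 FPKM in wild-type cortex and 648 and 746 FPKM in mutant cortex, with 7 of 8 tested genes higher and Gsx1 under the filter. Radial glial markers summed to 959.8 and 800.04 FPKM against 907 and 934 FPKM, with 2 of 9 higher. These were Sox2 (log2 fold change 1.79) and Pax6 (1.96), which is the mutated gene itself and so no independent marker here. Of the 9 fold changes 6 were above 0, and the lowest was that of Slc1a3 (-0.60, limma adjusted p = 0.0786). Intermediate progenitor markers summed to 185 and 211 FPKM against 138 and 135 FPKM, with 3 of 6 lower and 1 higher. Markers of postmitotic neurons (the pan-neuronal list) summed to 2980 and 2943 FPKM against 2584 and 2519 FPKM, with 2 of 9 lower. These 2 were Rbfox3 and Neurod6, and Neurod6 is counted in the glutamatergic list as well. Neurod6 alone was 534 and 588 FPKM in wild-type cortex and 352 and 323 FPKM in mutant cortex. The other 7 genes of the list, Tubb3 and Dcx among them, were not called. Meningeal markers summed to 28.1 FPKM in mutant library 1, against 6.74 FPKM in mutant library 2 and 4.63 and 3.26 FPKM in wild-type cortex, and 0 of 5 tested were called by limma, with 3 at an unadjusted p under 0.05. Vessel markers summed to 68.7 and 64.8 FPKM against 96.6 and 78.7 FPKM. Of these 8 genes 0 were called by limma, and 4 had an unadjusted p under 0.05. For all 8 vessel genes both mutants lay above both wild types (25.8% of tested genes), and the median fold change was 0.43. Oligodendrocyte precursor, microglial and erythrocyte lists had 0 genes called, and 2 microglial genes had an unadjusted p under 0.05. No marker of these lists was at 0 in all libraries. With either wild-type library left out, the lower calls numbered 0 for the glutamatergic, intermediate progenitor and pan-neuronal lists, and with mutant library 2 left out they numbered 4, 3 and 0. The intermediate progenitor gene called higher was lost in all 4 such fits, 2 meningeal genes were called higher with mutant library 2 left out, and 6 or 7 ventral progenitor genes were called higher. Radial glial genes called higher numbered 1 with wild-type library 2 left out and 2 in the other fits. The part of these shifts in the replication genes was not tested. In mutant libraries 1 and 2 the replication genes summed to 1148 and 1225 FPKM and the meningeal markers to 28.1 and 6.74 FPKM. Whether these sums are related was not tested.

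**Figure D5:**
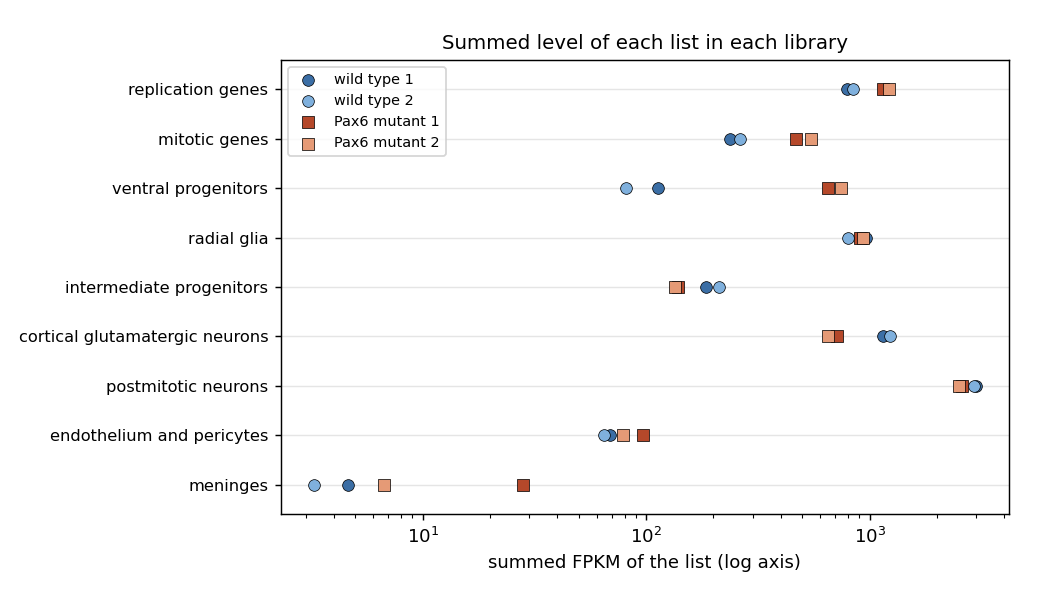
Summed FPKM on a log axis of the replication genes, the mitotic genes and 7 marker lists in each library, with wild types as circles and Pax6 mutants as squares. The replication genes sum to 789.6 and 838.3 FPKM in wild-type cortex and 1148 and 1225 FPKM in mutant cortex, and the ventral progenitor markers to 112.8 and 81.6 against 648 and 746 FPKM.

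In the authors' deposited table, whose test is not stated, the mutant FPKM divided by the wild-type FPKM was above 1 for all 43 members and the p-value was under 0.05 for 5 of them, against 1.83% of all genes of that table. The p-values of the authors' deposited table were 0.000378 for Rrm2, 0.000865 for Pcna, 0.0118 for Mcm7, 0.0418 for Prim1 and 0.0457 for Mcm5. All 5 were also called by limma. For the members, the deposited ratios were those of the mean FPKM of the same 4 libraries. Neither these ratios nor the deposited p-values are thus separate evidence. The share of all genes of that table with a ratio above 1 was not counted.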

How the data were processed

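RNA of 4 cortex libraries, 2 wild type and 2 Pax6 sey/sey, was analysed from 1 deposited table. The authors deposited an FPKM value per gene and library, a group FPKM, a ratio between the groups and a p-value, per the file headers. Named in the submitters' processing notes, without roles, are GRCm38.p4, mm10, Cufflinks 2.2.1, TopHat2 2.0.9 and edgeR. Strand use and further scaling are not given in the sources used here. Library totals were 579698 to 593256 FPKM. Fragment totals were not estimated. From the value of 1 fragment in low genes, the other wild type had 0.781 times the depth of wild-type library 1, and the mutants 0.866 (library 1) and 1.19 times (library 2), with 72.8% to 75.5% of low genes within 0.05 (log2) of that ratio.

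Members were matched by gene name, and other symbols by Ensembl identifier (22599 of 22770 matched). Coordinates and exon overlaps are those of GENCODE M21 on GRCm38, counted from 1. Genes with at least 0.5 FPKM in 2 libraries were tested as log2(FPKM + 0.5) with limma 3.58.1 in R 4.3.3 (mean-variance trend, prior degrees of freedom 3.05), adjusted over 15399 genes. The fit was tested on simulated data. The members and lists were chosen with earlier results of these data known. Values in every library are given for up to 4 called members per role and the member with the smallest fold change, and up to 3 called genes per further list are named. Some further genes were chosen after their values were seen: Mcm10, Mcm4, Tk1, Orc6, Orc2 to Orc5, Pola1, Rrm2b, E2f1 and Rb1.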

Additional observations from a re-analysis of the deposited data

How the results depend on the processing

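Members called higher numbered 15 with a pseudocount of 0.1 or 1, with a filter on a mean of at least 1 FPKM (which left out Orc1) and with median-of-ratios scaling, and these were the same 15 genes. Testing every gene of the table, with no filter, left 1 (Rrm2), and a fit without the mean-variance trend left 0, where the smallest adjusted p of a member was 0.0575 and 33 members had an unadjusted p under 0.05. Calls over all genes fell from 536 to 61 with no filter and to 54 without the trend. Leaving out 1 library at a time gave 0 to 7 members called higher, 47 to 345 genes called in all and a members' median of 0.49 to 0.64, and no member was called lower under any of these settings. These fits gave Orc1 fold changes of -0.28 to 0.33, Ccne1 -0.032 to 0.36 and Ccne2 -0.035 to 0.38, and Orc1 was also below 0 without wild-type library 2 (-0.10). The cause of the lost calls was not tested. The fit without the trend used the same 4 libraries and the same 15399 genes as the main fit. With the replicate number as a block, 10 members were called higher, 8 of them among the 15 (not Cdc6, Cdt1, Cdc45, Pole, Lig1, Dut or Chaf1a), with Mcm10 and Pold1 added, and 374 genes in all, with a median of 0.54. Deviations of same-numbered libraries had a correlation of 0.05 over all tested genes, so the numbers were not taken as pairs. Depth limits low members such as Orc1, which had about 19 to 50 fragments a library.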
